A study of Rattus norvegicus with 9 samples.

Results

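Rat bone marrow mesenchymal stem cells (MSCs) were induced with EGF, the epidermal growth factor, and bFGF, the basic fibroblast growth factor, either alone or with insulin-like growth factor 1 (IGF-1) added. Here 3 libraries that received IGF-1 are set against 3 that did not, across all genes. A gene's level was the sum of the FPKM of its transcripts, a read density corrected for transcript length and for the reads of a library, and 14116 of 26249 genes had 0.1 FPKM or more in at least 3 of these 6 libraries. These 6 libraries are part of a series of 9, whose other 3 are untreated MSCs at passage 3. The MSCs were grown out of femoral and tibial marrow of 3 Sprague Dawley rats aged 4 weeks. Cells of the EGF+bFGF group were held for 3 days on ultra-low attachment plates in NeuroCult NS-A proliferation medium that held EGF at 20 ng/ml and bFGF at 20 ng/ml. Cells of the EGF+bFGF+IGF1 group carried all 3 factors and were also collected after 3 days. The dose of IGF-1, the medium of that group and whether its libraries came from the same rats by number are not given in the sources used here. No library of cells in this medium without growth factors was analysed here, and by their labels both groups share EGF, bFGF and the time of collection and differ in IGF-1.

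IGF-1 binds the IGF-1 receptor, a tyrosine kinase, and the signal passes through insulin receptor substrates to phosphoinositide 3-kinase, Akt and mTOR. Akt phosphorylates the FoxO transcription factors and keeps them out of the nucleus, so that their target genes are commonly read as a record of the pathway's activity. Binding proteins and the IGF-2 receptor, which carries ligand to lysosomes, set how much free ligand is left. EGF and bFGF act through receptor tyrosine kinases that feed Ras, ERK and phosphoinositide 3-kinase as well. In neural progenitor cultures IGF-1 is known as a survival and growth factor used beside EGF and bFGF.

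The libraries held an estimated 39900000 to 49600000 reads, worked out from the confidence intervals of the FPKM, and their scaling factors ran from 0.975 to 1.03. Symbols were available for 1785 of the 14116 tested genes. Of these, 951 were named from a table in gene ID order and 834 from the genes that differed between MSCs and cells induced with EGF and bFGF, and the second set was thus chosen on the EGF+bFGF libraries. Among the markers that could be looked up, vimentin (Vim) was at 630 to 879 FPKM in the 6 induced libraries and nestin (Nes), an intermediate filament of progenitors, at 0.268 to 0.331. Msi1, an RNA-binding protein of neural progenitors, was at 0.212 to 0.719 FPKM. The leukocyte marker Ptprc reached at most 0.0142 FPKM and the astrocyte marker Gfap at most 0.00956. The macrophage lysosomal protein Cd68 was at 8.93 to 14.4 FPKM in the induced libraries and 0.226 to 0.502 in MSCs. Between the induced groups it differed by −0.00 on the log2 scale. In bulk libraries, fewer cells of a type and less RNA per cell cannot be told apart.

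Very few genes differed between cells induced with and without IGF-1. A gene was called where limma's p, adjusted by Benjamini-Hochberg, did not exceed 0.05 and the groups differed by 1 or more on the log2 scale. This held for 14 of 14116 genes (0.0992%), of which 10 were higher (0.0708%) and 4 lower (0.0283%) with IGF-1. This balance turned when a library with IGF-1 was left out, to 3 higher and 17 lower without library 1, 1 and 5 without library 2, and 0 and 3 without library 3. The filter still asked for 0.1 FPKM in 3 libraries. A gene at 0 throughout 1 group thus could not be tested once a library of the other group was left out. The turn is therefore not read as a result. Summing annotated transcripts only gave 54 called genes, 30 higher and 24 lower. The adjusted p alone gave the same number, 14. Without adjustment, 660 genes (4.68%) had a p under 0.05. The 3 libraries with IGF-1 lay entirely above or entirely below the 3 without it for 1388 genes (9.83%), 832 of them higher (5.89%) and 556 lower (3.94%). None of the 14 called genes had a symbol in the sources used here, and 10 of them are annotated with transcripts of 77 to 228 bases. All 10 were listed at 0 in every library of 1 group, which was the EGF+bFGF group for 8 of them, and so passed the filter on low values only through the other group. A listed 0 can be a value that could not be estimated, and for transcripts shorter than a typical fragment the FPKM rests on few reads and a large length correction. With genes of annotated transcripts under 300 bases set aside after the fit, 4 of 13714 genes (0.0292%) were called, and fitted without them 2 were, both higher. Leaving out EGF+bFGF library 1, which stood apart in the principal components, gave 22 called genes, 21 of them higher and 9 shared with the 14. The count was 16 without EGF+bFGF library 2, 19 without library 3, and 20 without library 1 with IGF-1. A rise was thus not particular to EGF+bFGF library 1.

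**Figure D1:**
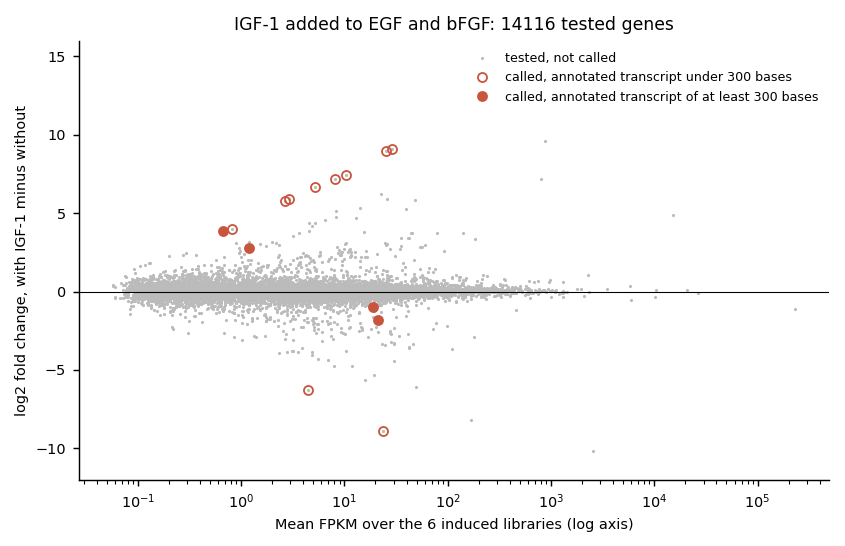
Log2 fold change with IGF-1 against without it (vertical axis, on the log2(FPKM + 0.1) scale) by the mean FPKM over the 6 induced libraries (horizontal log axis), for 14116 tested genes (points). Open circles mark the 10 called genes with annotated transcripts under 300 bases and filled circles the 4 with longer ones. Most points lie near 0, and many uncalled points lie as far from 0 as the called ones.

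The intervals put bounds on what could have been missed. Over the 11536 genes with a mean of at least 1 FPKM in 1 or both groups, the 95% interval of the difference reached a median of 0.44 to either side on the log2 scale, which is 1.36-fold. The whole interval lay within 1 of 0 for 70.5% of all tested genes. Among the 11536, this was so for 9066 (78.6%), and for these a 2-fold difference in either direction lies outside the interval. For the other genes a 2-fold difference was not excluded by the interval, and a p that misses the threshold does not show that the groups were alike. The spread among replicates was itself wide. With the 11174 genes at 1 FPKM or more in both group means, the highest library was at 2 times the lowest or more for 14.9% of genes in the EGF+bFGF group and for 9.97% in the EGF+bFGF+IGF1 group, and the median coefficient of variation was 16.8% and 10.7%. The sources do not say whether libraries of the group with IGF-1 came from separate rats, and if they did not, their spread, which enters the p-values, is technical.

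Whole transcriptomes did not separate by IGF-1. On the log2(FPKM + 0.1) scale over the tested genes, the 9 Euclidean distances between a library with and one without IGF-1 were 105 to 117, with a mean of 111.3. The 3 distances among EGF+bFGF libraries were 111 to 117 and the 3 among EGF+bFGF+IGF1 libraries 99.9 to 108, for a mean of 109.2 within groups. The difference of 2.11 gave p = 0.4 in a two-sided exact permutation test, in which 3 libraries against 3 cannot go below 0.1. For scale, libraries with IGF-1 lay 157 to 176 from MSC libraries and those without it 152 to 176, when all 9 were scaled together. Of the variance over the 500 most variable genes, 25.3% lay on the first principal component, where EGF+bFGF library 1, at 15.1, lay among the scores of the libraries with IGF-1, which were −6.45, 31.6 and 32.6. The other EGF+bFGF libraries were at −46.3 and −26.5. The second component held 22.4% and set EGF+bFGF library 1 apart, at 58.4 against −28.0 to 0.74 for the rest.

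**Figure D2:**
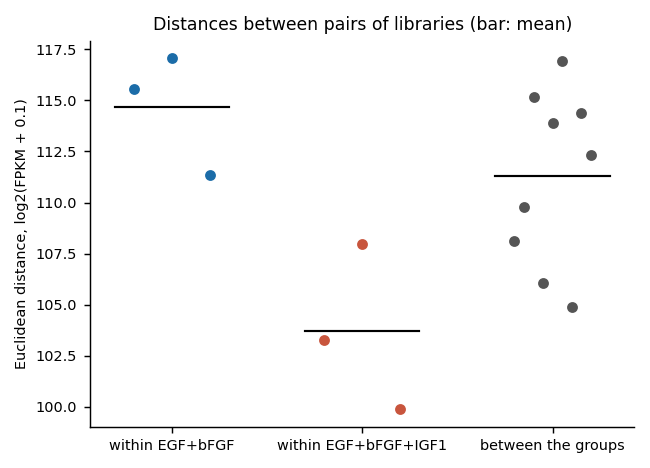
Euclidean distance on log2(FPKM + 0.1) (vertical axis, starting above 0) for each pair of libraries (points), within the EGF+bFGF group (3 pairs), within the EGF+bFGF+IGF1 group (3 pairs) and between them (9 pairs), with bars at the means. The pairs between groups, at 105 to 117, overlap the pairs within the EGF+bFGF group, at 111 to 117.

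ENSRNOT00000072149, a called gene that was lower with IGF-1, is a locus on the minus strand of chromosome 1 (81481174 to 81487900, annotated length 3251 bases) with no gene ID in the files. It was at 36.9, 28.8 and 31.8 FPKM without IGF-1 and at 9.15, 11.4 and 7.62 with it. The groups lay far apart, and the MSCs, at 12.9, 12.2 and 14.5, lay between them, above every library with IGF-1. The log2 fold change was −1.81 (SE 0.18, adjusted p = 0.0361, limma). Leaving out any 1 of the 6 libraries ended the call, with log2 fold changes of −1.96 to −1.68 and adjusted p of 0.0745 to 0.267. In all 6 libraries most of the level came from unannotated isoforms of 1183 to 5898 bases, and the annotated transcript itself was above 0 in 1 library only, with IGF-1, at 2.20 FPKM. When each isoform was weighted by its length, which was added once values had been seen, the levels were 29.9, 23.0 and 26.0 FPKM without IGF-1 against 7.18, 6.96 and 4.83 with it (log2 fold change −2.07, adjusted p = 0.0145). MSCs were then at 7.42, 5.84 and 8.13, and so overlapped the libraries with IGF-1.

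Among the other 3 called genes of 300 bases or more, 2 had different transcript models in the groups. ENSRNOT00000017156 (chromosome 5, 152252915 to 152294518, minus strand) was at 24.1, 25.8 and 26.3 FPKM without IGF-1 and 12.6, 13.1 and 12.3 with it (log2 fold change −1.02, SE 0.09, adjusted p = 0.0214, limma). Each library without IGF-1 carried an unannotated model of 482 or 483 bases at 13.4 to 14.7 FPKM that no library with IGF-1 had. The call ended when any 1 library was left out, with adjusted p of 0.0583 to 0.287, and over genes of at least 300 bases, at 0.0760. Models of 1000 bases or more were at 9.79, 12.4 and 11.6 FPKM without IGF-1 and 12.6, 13.1 and 12.3 with it, and the length-weighted log2 fold change was −0.07 (adjusted p = 0.976). With annotated transcripts only it was 0.27. ENSRNOG00000045543 (chromosome 1, 268542217 to 268542909, minus strand) was at 0.226, 0.245 and 0.195 FPKM without IGF-1, all in the annotated transcript of 693 bases. With IGF-1 it was at 2.05, 2.27 and 2.13, all in unannotated models of 1919 to 1993 bases, which are longer than the annotated gene (log2 fold change 2.79, SE 0.20, adjusted p = 0.00686). The annotated transcript alone gave −1.70, and the call ended without library 2 or 3 with IGF-1, at adjusted p of 0.0762 and 0.150. ENSRNOG00000016033 (chromosome 3, 14094225 to 14096950, plus strand) was listed at 0 in all 3 EGF+bFGF and all 3 MSC libraries and stood at 1.42, 1.38 and 1.22 FPKM with IGF-1. It passed the filter on low values only through the libraries where it was above 0, so its adjusted p of 0.00204 is not read as support, and with the filter at 1 FPKM it was 0.163. It overlaps a locus on the minus strand, and whether the assembly used strand is not stated, so reads of the pair may have been shared.

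The 6 genes of next lowest p under the same conditions, with adjusted p of 0.0814 to 0.175 and no symbol either, did not pass. ENSRNOG00000013707 was at 18.1, 16.2 and 16.3 FPKM without IGF-1 and 5.76, 3.42 and 5.37 with it, and ENSRNOG00000014673 at 10.9, 10.1 and 7.04 against 3.41, 3.57 and 3.63. In both, models under 1000 bases were found only without IGF-1, at 11.1 to 12.1 and 4.74 to 7.12 FPKM, and the longer models alone overlapped between the groups. ENSRNOG00000017429 was at 0.449, 0.189 and 0.500 FPKM without IGF-1 and 4.92, 4.16 and 2.90 with it, of which 4.50, 3.98 and 2.75 lay in models under 1000 bases. ENSRNOT00000019844 was at 42.6, 45.6 and 41.9 FPKM without IGF-1 and 66.9, 76.9 and 70.7 with it, all in models of 1000 bases or more. The log2 fold change was 0.70 with a 95% interval of 0.47 to 0.93. Among induced libraries its annotated model of 2442 bases was found only with IGF-1, at 13.9, 18.2 and 16.9 FPKM. Its unannotated model of 4777 to 4824 bases was at 41.9 to 45.6 FPKM without IGF-1 and 53.05 to 58.7 with it. With annotated transcripts only, the log2 fold change of this gene was 7.33, and with length-weighted sums 0.53. The level of ENSRNOT00000019844 in MSCs, 85.8 to 97.9 FPKM, was higher than in either induced group. ENSRNOT00000060335 was at 6.46, 6.32 and 11.3 FPKM against 1.87, 1.95 and 2.25. Among induced libraries its annotated model of 954 bases was found only without IGF-1, at 2.16, 2.29 and 6.73 FPKM. Its longer models, at 4.03 to 4.54 FPKM against 1.87 to 2.25, did not overlap. ENSRNOT00000028540 was at 29.2, 34.8 and 29.3 FPKM against 18.2, 19.9 and 18.8. Its models under 1000 bases were found, among induced libraries, only in EGF+bFGF libraries 2 and 3, at 14.1 and 15.1 FPKM. Its longer models alone overlapped between the groups, as did its length-weighted levels (log2 fold change −0.42).

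**Figure D3:**
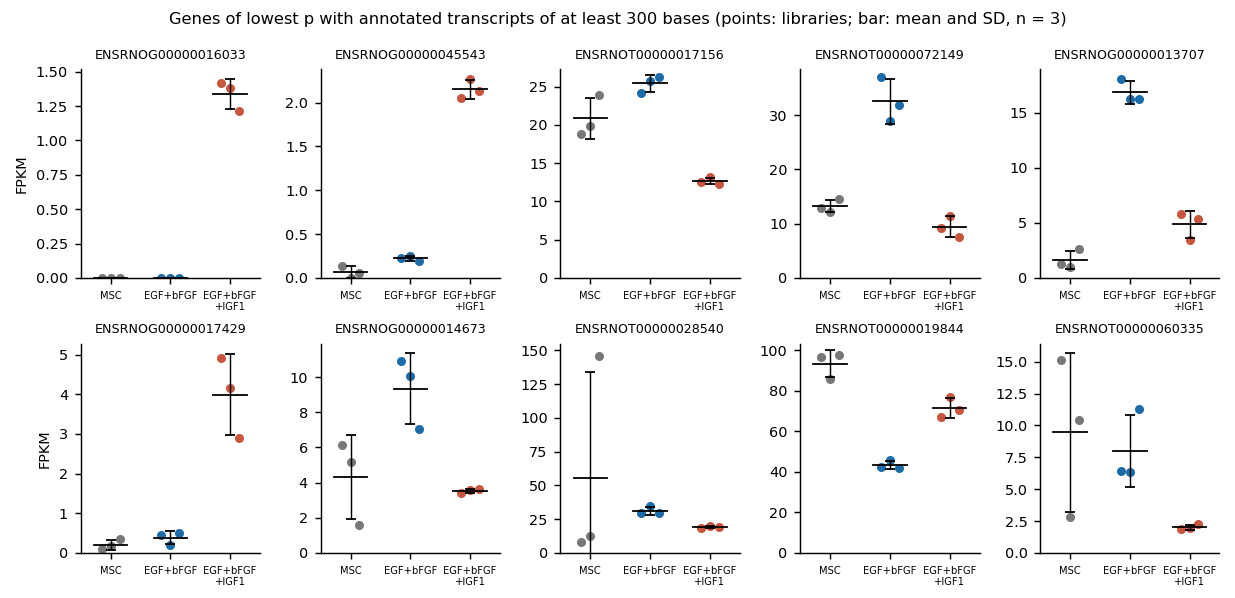
FPKM (vertical axes, linear from 0) in each library (points) of the MSC, EGF+bFGF and EGF+bFGF+IGF1 groups for the 10 genes of lowest p with an annotated transcript of at least 300 bases, a mean of at least 1 FPKM and groups that do not overlap; bars are the mean and SD over 3 libraries. The first 4 panels are the called genes, and in each panel the 3 libraries with IGF-1 lie wholly above or wholly below the 3 EGF+bFGF libraries.

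Of the IGF system itself, 3 of 19 listed genes had a symbol, and none passed, where 0.0992% of all tested genes did. Igf2r, the receptor that takes IGF-2 into lysosomes, was at 291, 260 and 213 FPKM without IGF-1 and 180, 192 and 226 with it, so the groups overlapped in 1 library each. Its log2 fold change was −0.37 with a 95% interval of −0.75 to 0.01 (adjusted p = 0.969, limma), and both groups stood above MSCs, at 48.1 to 50.3. Igfbp7, a secreted binding protein of low affinity for IGF, was at 245, 348 and 348 FPKM without IGF-1 and 348, 230 and 224 with it (log2 fold change −0.26, 95% interval −0.79 to 0.27). Igfbp6, which prefers IGF-2, was at 1.94, 1.44 and 1.36 FPKM against 2.03, 1.63 and 1.797 (log2 fold change 0.18, 95% interval −0.35 to 0.72). For all 3 genes the interval lay within 1 of 0. The ligands, the IGF-1 receptor, the insulin receptor and the other binding proteins carried no symbol in the sources used here and were not looked at by name.

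Of 42 listed transducers of insulin and IGF signals, 6 were named and tested, and none passed, where 0.0992% of all tested genes did. Pik3r3, a regulatory subunit of phosphoinositide 3-kinase, was at 3.38, 7.82 and 6.53 FPKM without IGF-1 and 3.23, 3.22 and 2.12 with it. Every library with IGF-1 lay below every library without it, though library 1 of each group differed little, and the log2 fold change was −0.99 (95% interval −1.78 to −0.19, unadjusted p = 0.0229, adjusted p = 0.969, limma). Rptor, the mTOR partner raptor, was at 4.65, 4.65 and 5.47 FPKM against 4.03, 4.19 and 4.44 (log2 fold change −0.23, 95% interval −0.59 to 0.12). The kinase Gsk3b, which Akt inhibits, was at 11.2 to 12.1 FPKM without IGF-1 and 11.4 to 13.8 with it (log2 fold change 0.09, 95% interval −0.20 to 0.37). The phosphatase Phlpp1, the substrate Irs3 and the catalytic subunit Pik3cb had log2 fold changes of 0.10, 0.52 and 0.28, and the intervals of Irs3 and Pik3cb reached past 1. The groups did not overlap for 2 of the 6, both lower with IGF-1, against 3.94% of all tested genes, and the median log2 fold change was 0.10 against −0.00 over all tested genes.

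The FoxO target genes that could be tested showed no difference beyond the spread between libraries. Of 34 listed genes, 8 were named and tested, none passed, and none had groups that did not overlap. Over all tested genes these shares were 0.0992% and 9.83%, so with only 8 genes the counts of 0 are not read as a result. Txnip, which binds thioredoxin and limits glucose uptake, was at 385, 273 and 111 FPKM without IGF-1 and 236, 366 and 257 with it, while MSCs were at 1.802 to 2.07. The spread within the EGF+bFGF group was larger than the difference between the groups, and the log2 fold change was 0.29 with a 95% interval of −0.79 to 1.37 (adjusted p = 0.969, limma). Pdk4, which inhibits pyruvate dehydrogenase, was at 3.32 to 5.12 FPKM against 3.43 to 6.51 (log2 fold change −0.00, 95% interval −0.71 to 0.70). Bcl6, a transcriptional repressor, was at 17.5 to 22.2 FPKM without IGF-1 and 16.6 to 24.6 with it, a log2 fold change of 0.03 (95% interval −0.40 to 0.46). Bcl2l11, the pro-apoptotic protein Bim, had a log2 fold change of 0.42 (95% interval −0.47 to 1.32), and Sod2, the mitochondrial superoxide dismutase, one of 0.41 (95% interval −0.31 to 1.13). Angptl4, an inhibitor of lipoprotein lipase, was at 72.9, 89.5 and 187 FPKM without IGF-1 and 68.5, 64.2 and 86.7 with it (log2 fold change −0.58, 95% interval −1.44 to 0.28). Sesn1 and Ccng2 lay at 0.23 and 0.02. The median log2 fold change of the 8 was 0.13, and 4 of their intervals lay within 1 of 0.

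**Figure D4:**
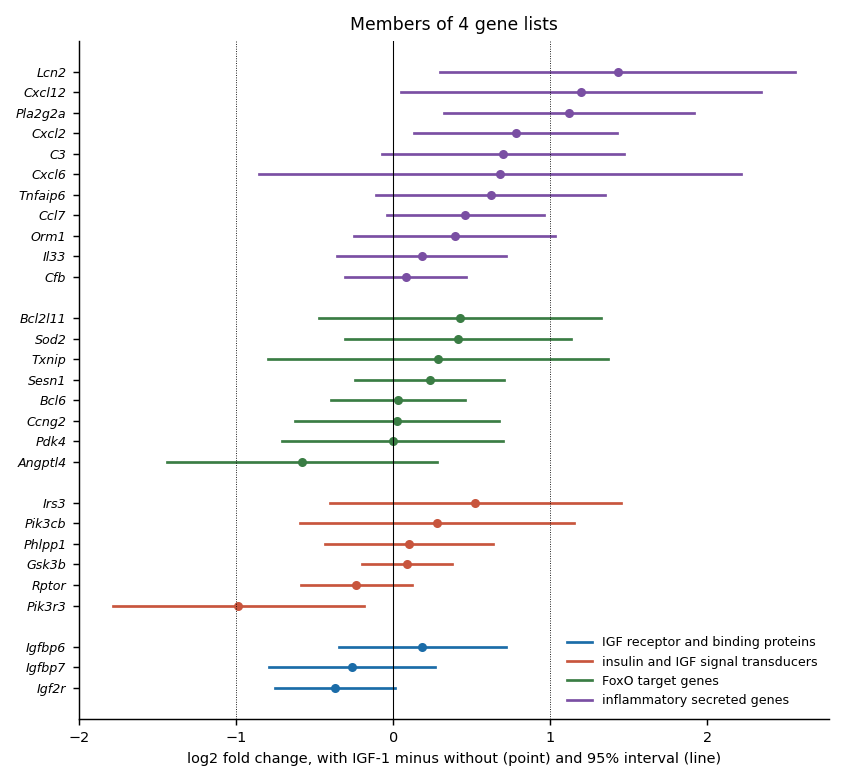
Log2 fold change with IGF-1 against without it (points, horizontal axis) and its 95% interval (lines) for the tested members of 4 gene lists, with dotted lines at −1 and 1. Most intervals of the IGF, transducer and FoxO lists cross 0, while all 11 inflammatory secreted genes have points above 0 and 4 of them intervals that do not reach 0. Of these 4, Cxcl2 passed the filter on low values only through the libraries with IGF-1.

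Among genes with a symbol, 64 of 1785 had an unadjusted p under 0.05 in limma (3.59%), against 4.68% of all tested genes. The groups did not overlap for 147 (8.24%), against 9.83% of all tested genes. Both shares of the named genes were thus the lower ones, and none of the 1785 passed, the lowest adjusted p being 0.305. The genes of this and the next paragraph, other than Ret and Pfkl, were chosen after their values were seen. Apln, the secreted peptide apelin that acts on vessels, was at 5.57, 7.90 and 4.95 FPKM without IGF-1 and 16.6, 16.3 and 11.8 with it. Each library with IGF-1 was above each without it, MSCs were at or below 0.0175, and the log2 fold change was 1.26 (95% interval 0.76 to 1.75, adjusted p = 0.305, limma). Cox4i2, the subunit of cytochrome c oxidase used in lung and at low oxygen, was at 23.4, 24.4 and 13.4 FPKM against 45.5, 58.0 and 51.3, a log2 fold change of 1.36 (95% interval 0.79 to 1.92, adjusted p = 0.334). Ret, the receptor of glial cell line-derived factors, was at 0.409, 0.272 and 0.0945 FPKM without IGF-1 and 0.692, 2.76 and 2.24 with it, and 2 of the 3 MSC libraries were listed at 0. Libraries 2 and 3 with IGF-1 stood well above library 1, and the log2 fold change was 2.37 (95% interval 0.96 to 3.79, adjusted p = 0.785). Angptl8, a secreted regulator of lipoprotein lipase that insulin induces in liver and fat, was at 17.6, 17.3 and 18.0 FPKM without IGF-1 and 24.8, 78.9 and 76.6 with it. Again library 1 lay near the EGF+bFGF group, and the log2 fold change was 1.57 (95% interval 0.49 to 2.64, adjusted p = 0.925).

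Other named genes whose libraries did not overlap lay on both sides. Pfkl, the liver-type phosphofructokinase of glycolysis, was at 33.8, 25.6 and 24.6 FPKM without IGF-1 and 40.2, 49.0 and 41.2 with it, a log2 fold change of 0.62 (95% interval 0.23 to 1.01, unadjusted p = 0.00750, adjusted p = 0.827, limma). Ugdh, which makes the glucuronic acid of hyaluronan, was at 30.1, 36.0 and 33.1 FPKM against 42.1, 46.8 and 52.2 (log2 fold change 0.48). The ferritin heavy chain Fth1 was at 831, 746 and 693 FPKM against 905, 1270 and 1300 (log2 fold change 0.58), and the mitochondrial protein Fam162a, a target of hypoxia signalling, at 96.8, 85.0 and 49.9 against 115, 182 and 134 (log2 fold change 0.90). Ltc4s, the leukotriene C4 synthase, was at 5.18 to 7.84 FPKM without IGF-1 and 9.74 to 20.3 with it (log2 fold change 1.04). Lower with IGF-1 were Mllt11, at 9.02, 7.06 and 11.5 against 5.42, 4.08 and 3.93 (log2 fold change −1.03), the laminin chain Lama2, at 9.11, 8.63 and 7.83 against 7.21, 5.97 and 5.71 (log2 fold change −0.45), and the T-cell co-stimulator Cd80, at 6.18, 8.37 and 4.68 against 4.03, 4.03 and 2.90 (log2 fold change −0.79). All of these had adjusted p of 0.702 or more. With length-weighted sums the log2 fold change of Cd80 was −0.27 and that of Mllt11 −0.60.

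**Figure D5:**
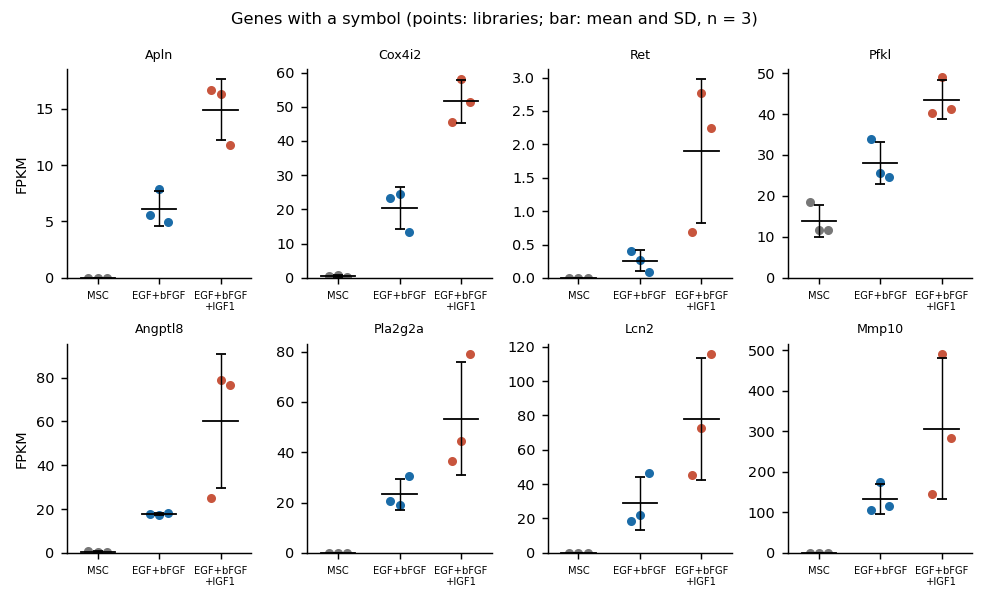
FPKM (vertical axes, linear from 0) in each library (points) of the MSC, EGF+bFGF and EGF+bFGF+IGF1 groups for 8 genes with a symbol, none of which passed the adjusted p; bars are the mean and SD over 3 libraries. For Apln, Cox4i2, Ret, Pfkl, Angptl8 and Pla2g2a the 3 libraries with IGF-1 lie above all EGF+bFGF libraries, while for Lcn2 and Mmp10 the groups overlap.

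Of the 38 gene lists, 36 had a tested member, and 0 of their 205 members passed in limma, against 0.0992% of all tested genes. An unadjusted p under 0.05 was found for 15 of the 205, against 4.68% of all tested genes. The groups did not overlap for 14 members on the higher side and 5 on the lower, where all tested genes gave 5.89% and 3.94%. The interval lay within 1 of 0 for 114 of the 205, against 70.5% of all tested genes. The inflammatory secreted genes had the most members whose groups did not overlap. All 11 tested members had a log2 fold change above 0, against 49.9% of all tested genes, with a median of 0.68 and a range of 0.08 to 1.43. The groups did not overlap for 4, all higher with IGF-1, against 5.89% of all tested genes. These were Pla2g2a, Cxcl12, C3 and Cxcl2. Cxcl2 was at 0.0476 to 0.0813 FPKM without IGF-1 and 0.142 to 0.232 with it. It passed the filter on low values only through the libraries with IGF-1, so it is not read as support. C3 was also low, at 0.0985 to 0.233 FPKM against 0.307 to 0.454. Of the 11, 4 were named by gene ID order and 7 from the genes that differed between MSCs and EGF+bFGF cells. Summed over the list, the level was 114, 127 and 183 FPKM without IGF-1 and 181, 229 and 337 with it, which overlap. Pla2g2a, a secreted phospholipase, was at 20.4, 19.1 and 30.5 FPKM without IGF-1 and 36.5, 44.6 and 78.9 with it (log2 fold change 1.12, 95% interval 0.32 to 1.92, adjusted p = 0.936, limma). Lcn2, the iron-scavenging lipocalin, was at 18.3, 21.8 and 46.4 FPKM against 45.3, 72.9 and 116, where EGF+bFGF library 3 reached the level of library 1 with IGF-1 (log2 fold change 1.43, 95% interval 0.30 to 2.56). The chemokine Ccl7 was at 47.2, 53.2 and 65.1 FPKM against 63.0, 72.1 and 98.0 (log2 fold change 0.46), and the complement factor Cfb at 23.1, 25.9 and 31.6 against 25.7, 27.9 and 32.5 (log2 fold change 0.08, 95% interval −0.31 to 0.46). Cxcl12, the chemokine that holds haematopoietic cells in marrow, was at 0.495, 2.24 and 1.24 FPKM against 2.36, 3.23 and 2.74, and at 5.39 to 14.9 in MSCs. Beside these genes, 4 of 24 listed blood and myeloid markers were tested, with summed levels of 10.2 to 11.9 FPKM without IGF-1 and 9.73 to 15.02 with it. Ptprc was at or near 0, and Cd68, Spi1 and Itgb2 had log2 fold changes of −0.00, 0.27 and −0.05.

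The stromelysins and collagenase that stood high in induced cells varied widely among libraries. Mmp3 was at 805, 1383 and 881 FPKM without IGF-1 and 1142, 1572 and 2112 with it, against 1.96 to 2.66 in MSCs (log2 fold change 0.63, 95% interval −0.06 to 1.32, adjusted p = 0.969, limma). Mmp10 was at 107, 175 and 115 FPKM against 145, 490 and 284, a log2 fold change of 1.06 (95% interval 0.01 to 2.11). With annotated transcripts only it turned to −3.04 (unadjusted p = 0.376, limma). Mmp13 was at 271, 433 and 572 against 311, 488 and 737. Of 9 tested matrix proteases and inhibitors, 7 had a log2 fold change above 0 and none had groups that did not overlap, against 49.9% and 9.83% of all tested genes. Frzb, a secreted Wnt antagonist, was at 86.7, 133 and 58.6 FPKM without IGF-1 and 133, 172 and 215 with it (log2 fold change 0.93, 95% interval 0.18 to 1.68), with EGF+bFGF library 2 at the level of library 1 with IGF-1. Cass4, a docking protein of focal adhesions, was at 1.07, 0.422 and 1.25 FPKM against 0.768, 0.261 and 0.173 (log2 fold change −1.11, 95% interval −2.47 to 0.24).

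Markers of neural progenitors overlapped between the groups, where 9.83% of all tested genes did not. Of 26 listed genes 5 were tested, with a median log2 fold change of −0.05. Nes was at 0.293, 0.328 and 0.293 FPKM without IGF-1 and 0.331, 0.282 and 0.268 with it (log2 fold change −0.06, 95% interval −0.59 to 0.48). Vim was at 879, 674 and 747 FPKM against 801, 826 and 630 (log2 fold change −0.05, 95% interval −0.46 to 0.36). Hes1, an effector of Notch, had a log2 fold change of 0.08 (95% interval −0.67 to 0.84), and Hes3 and Msi1 had values of −0.17 and 0.41 with intervals that reached beyond 1 on 1 side. Of 11 tested genes of neural crest and autonomic development, Ret and Snai1 had groups that did not overlap, both higher with IGF-1, against 5.89% of all tested genes. Snai1, a repressor of epithelial genes, was at 31.6, 21.0 and 32.9 FPKM against 33.2, 35.3 and 37.6 (log2 fold change 0.32). Ednrb, an endothelin receptor, was at 0.896, 2.09 and 3.43 FPKM against 1.76, 7.25 and 10.95, and its interval of −0.44 to 3.26 left both no difference and a large one possible. The glial gene S100b had a log2 fold change of −0.01, and the neuronal gene Uchl1, at 9.33 to 18.5 FPKM without IGF-1 and 9.67 to 15.9 with it, one of −0.11.

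Growth and stress programmes showed no called member, where 0.0992% of all tested genes were called. Of 14 tested genes of mitosis and cytokinesis, 6 had a log2 fold change above 0 and the median was −0.21. Cdk1, the kinase that drives mitotic entry, was at 4.82, 6.30 and 7.20 FPKM without IGF-1 and 6.10, 4.22 and 3.75 with it (log2 fold change −0.41, 95% interval −0.97 to 0.16), and both groups were below MSCs, at 9.79 to 18.2. Nuf2, a kinetochore protein, was at 0.171, 0.210 and 0.109 FPKM against 0.348, 0.301 and 0.342, a log2 fold change of 0.71 (unadjusted p = 0.0298, adjusted p = 0.969, limma). All but 1 of the 10 tested genes of DNA replication had an interval within 1 of 0, with a median of 0.02. The 10 early response genes and ERK feedback regulators, which report EGF and FGF signalling, had a median of −0.19, and Egr1 was at 29.9, 22.6 and 33.4 FPKM against 26.2, 21.4 and 23.0 (log2 fold change −0.29, 95% interval −0.73 to 0.16). Ribosomal protein genes, a group that mTOR controls chiefly at translation, had a median of 0.15 over 5 members, and oxidative phosphorylation one of 0.04 over 14. Of these 14, all but Cox4i2 and Ndufa4l2 had an interval within 1 of 0. Ndufa4l2, a relative of a cytochrome oxidase subunit, was at 149.6, 11.4 and 0 FPKM without IGF-1 and 20.5, 26.3 and 13.4 with it, so that its interval of −5.42 to 9.02 bounds little. Of glycolysis, Pfkl and Aldoc were tested, and Aldoc was at 22.7, 15.6 and 9.19 FPKM against 21.6, 33.0 and 24.6 (log2 fold change 0.79, 95% interval −0.02 to 1.59). The hypoxia genes Adm, Egln3 and Epas1 had log2 fold changes of −0.29, 1.197 and −0.05. Slc7a3, a transporter of cationic amino acids, was at 0.396, 0.271 and 0.272 FPKM against 0.510, 1.19 and 0.849 (log2 fold change 1.13, 95% interval 0.31 to 1.96).

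Of the 7 tested MSC markers none passed, where 0.0992% of all tested genes did. For 5 the interval lay within 1 of 0, and only Cxcl12 had groups that did not overlap. It was higher with IGF-1, as were 5.89% of all tested genes without overlap. Tagln, an actin-binding protein of smooth muscle, was at 47.6, 32.8 and 138 FPKM without IGF-1 and 110, 40.3 and 27.4 with it, against 4237 to 4799 in MSCs. Library 3 without IGF-1 and library 1 with it were the high ones, and Myl9, a myosin light chain, followed the same order, at 15.6, 14.4 and 36.9 against 33.6, 15.6 and 11.2. The interval of Tagln ran from −2.16 to 1.57 on the log2 scale. Casq2, a calcium-binding protein of muscle, was at 0.106 to 0.394 FPKM without IGF-1 and 0.152 to 0.320 with it, and Itgb1, the integrin beta-1 chain, had a log2 fold change of −0.06 (95% interval −0.40 to 0.27). Interferon response genes had a median of −0.16 over 9 members, of which Mx2 and Irf1 were lower in every library with IGF-1, at 0.742 to 0.852 against 1.02 to 1.30 FPKM for Mx2 and 9.45 to 10.4 against 10.6 to 11.97 for Irf1. Over all tested genes, 3.94% lay apart in this direction. Both tested endothelial markers, Vwf, at 0.228 to 0.520 FPKM without IGF-1 against 0.0983 to 0.220 with it, and Sox18, at 0.188 to 0.255 against 0.315 to 0.459, had groups that did not overlap, in opposite directions. This held for 9.83% of all tested genes, and both markers stayed under 1 FPKM in every library. Matrix genes of connective tissue and cartilage varied widely among libraries. Dcn, the collagen-binding decorin, was at 41.2, 73.7 and 202 FPKM without IGF-1 and 63.6, 187 and 332 with it, and Prg4, the lubricin of joints, at 18.6, 31.6 and 58.0 against 29.3, 58.2 and 91.3. Their intervals, −1.27 to 3.01 and −0.65 to 2.07 on the log2 scale, reached beyond 1. Ucma, a cartilage matrix protein, was at 1.78, 2.67 and 0.455 FPKM against 1.30, 6.08 and 18.1, and library 3 with IGF-1 was the high one. Other members went the other way, such as Col11a1 and Fmod, with log2 fold changes of −0.54 and −0.40. Values above 0 were found for 3 of 6 elastic and matricellular proteins, 4 of 7 chondrocyte markers and 1 of 4 collagens, against 49.9% of all tested genes. The remaining lists had medians of −0.33 to 0.46 and no called member.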

How the data were processed

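Poly-A RNA of 3 groups of 3 libraries was sequenced from 300 ng total RNA with a stranded kit. The authors assembled transcripts per library, and the deposited files hold the FPKM of each transcript, scaled within a library. Tools in the submitters' processing notes are CASAVA 1.8 with bcl2fastq for base calls, and TopHat, Bowtie2, Cuffdiff and Cufflinks. Their genome build and annotation release are not given in the sources used here, nor is the use of strand in assembly; the study's methods describe a different route for its own tables, which were used for gene names only. Depth was estimated from the FPKM intervals, since read counts were not analysed here.

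FPKM were summed per gene over 22125 annotated transcripts with a gene ID and 7020 without one, the latter joined by exon overlap into 5276 units, together with unannotated isoforms of the same assembled gene that overlap its exons. Values were divided by median-of-ratios factors. The log2(FPKM + 0.1) of the 6 induced libraries went into limma (version 3.58.1, R 4.3.3) with lmFit and a robust eBayes with an intensity trend, so fold changes of genes near 0.1 FPKM are understated. Fold changes are EGF+bFGF+IGF1 minus EGF+bFGF. Tables and figures used Python 3.11.15, pandas 2.3.3, numpy 2.4.6 and matplotlib 3.10.9. Simulated data with known fold changes were used to test the fit.

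Members and lists were chosen with earlier results of these data known. Named were called genes of at least 300 bases and 1 FPKM with groups that do not overlap or, with fewer than 5 called, the 10 of lowest p; the 2 highest members of each list; every IGF system gene of at least 1 FPKM; and Mmp10, Gria2, Frzb, Cass4, Ret, Kif2c, Tagln, Casq2, Nes, Sox2 and Nefl, of which Gria2, Kif2c, Sox2 and Nefl could not be matched to the genes analysed here. Some genes that the rule covers are given only within counts. Symbols came from the study's supplementary lists. The alternatives tried were a pseudocount of 0.01 or 1, no filter or one at 1 FPKM, no rescaling, quantile normalisation, a replicate block, eBayes without trend, 9 libraries in the fit, a minimum length, annotated transcripts only and each library left out. Length-weighted sums (FPKM times length over the longest annotated length) and joining of overlapping genes were added after the data were seen.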

Additional observations from a re-analysis of the deposited data

Results flagged for a closer look

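Unannotated transcripts that could not be tied to an annotated gene were left out of every comparison. Among transcripts of at least 300 bases they held a mean of 11.7% of the summed FPKM times length over the 6 induced libraries, with 9.81 to 13.6% without IGF-1 and 10.6 to 12.7% with it, against 5.67 to 6.07% in MSCs. Their share in both induced groups was above that of the untreated MSCs, and the 2 induced groups overlapped. Their number was 63885 to 80558 without IGF-1 and 55173 to 67638 with it.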

How the results depend on the processing

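The number of called genes, 14, moved with several choices. With only annotated transcripts summed, 54 genes were called, 30 of them higher, and 12 were among the 14; with genes of at least 300 bases 2 were called, with 9 libraries in the fit 9, and with length-weighted sums of genes of at least 300 bases 4. The count with the adjusted p alone was the same in each of these. Pseudocounts, filters on low values, scalings, eBayes without trend, length-weighted sums of all genes and joined loci gave 10 to 15. Leaving out 1 library gave 3 to 22. Without an EGF+bFGF library 15 to 21 of the calls were higher with IGF-1, while without a library with IGF-1 0 to 3 were. In these fits the filter still asked for 3 libraries. Genes at 0 throughout 1 group thus could not be tested once a library of the other group was left out. The turn in direction is therefore not read as a result. The 3 calls without EGF+bFGF+IGF1 replicate 3, the 6 without replicate 2 and the 22 without EGF+bFGF replicate 1 moved the count by over 1.5 times. Unadjusted p under 0.05 ran from 2.92% to 7.71% of genes over the libraries left out.

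The replicate numbers gave no sign of pairing. Deviations of same-numbered libraries from their group means correlated at −0.052, −0.005 and 0.051, and not every library correlated best with its own number. With 3 libraries per group, such correlations cannot show whether same-numbered libraries came from the same rat. With the replicate block 8 genes were called, and ENSRNOT00000072149, ENSRNOT00000017156, ENSRNOG00000045543 and ENSRNOG00000016033 were not among them. The block gave a distance between groups minus within of 13.1 (p = 0.2, exact permutation test). Taking out the mean of each same-numbered pair sets its members on opposite sides of 0. This raises the distance between groups by construction, and the permutations did not keep the pairs. The 13.1 is thus not comparable with the difference without the block, and its p is not read. Without the block, the difference was −2.38 with EGF+bFGF+IGF1 replicate 2 left out and −2.28 with replicate 3 left out. Its highest value on leaving out a library was 5.81.

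The call of ENSRNOT00000072149 kept its direction in every alternative that tested it and ended in 11, among them the fit of genes of at least 300 bases and each library left out, where its log2 fold change was −1.96 to −1.68. With annotated transcripts only, the log2 fold change turned to −1.70 for ENSRNOG00000045543, 0.27 for ENSRNOT00000017156, −0.51 for ENSRNOG00000017429, 0.74 for ENSRNOG00000014673, 1.14 for Adhfe1, 0.94 for Exoc3l2, −0.43 for Dgcr6 and −3.04 for Mmp10. A turn was counted only where the unadjusted p of the main fit had been under 0.05. With annotated transcripts only, the unadjusted p (limma) was 0.000154 for ENSRNOG00000045543, whose annotated transcript was at 0 in every library with IGF-1. For the other turned genes it was 0.120 to 0.895, so their turned values did not differ clearly from 0. Angptl8 and Ifi27l2b passed without EGF+bFGF+IGF1 replicate 1, with log2 fold changes of 2.12 and 1.78. The cause of these shifts was not tested. Depth was estimated here from the FPKM intervals, and genes under 1 FPKM and short transcripts rest on few reads.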
